A study of Mus musculus with 24 samples.

Results

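The insulin-like growth factor (IGF) genes described here are the ligands Igf1 and Igf2, the receptors Igf1r and Igf2r, and the IGF binding protein genes Igfbp2, Igfbp3, Igfbp4, Igfbp5, Igfbp6 and Igfbp7. They were chosen by name, with earlier results of these data known, and make up 10 of the 21965 genes in the count table. All 10 passed the minimum of 10 counts over all libraries, as did 17167 genes in all. The data are RNA-seq read counts from the spinal cord of OL-Ribotag mice, in which mature oligodendrocytes (OLs, the myelin-forming cells of the central nervous system) carry a hemagglutinin (HA) tag on a ribosomal protein, so that the mRNA on their ribosomes can be pulled down with an anti-HA antibody. Such libraries are called OL here, and libraries of the unselected lysate are called total RNA. Tissue was naive or was taken at day post-injury (dpi) 2, 10 or 42 after a contusive spinal cord injury (SCI) of 50 kdyn at T9.

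Each of the 8 groups (OL and total RNA in naive, dpi 2, dpi 10 and dpi 42 tissue) had n = 3 libraries, 24 in all, with OL and total RNA taken from the same lysate, for which the spinal cords of 2 mice had been combined. The p-values therefore measure the spread between such pools, estimated from all 24 libraries in 1 fit. The spread among OL libraries thus also enters the p-values of total RNA changes. OL and total RNA of the same pool were fitted without a pool term. All mice, controls included, carried the rpl22HA allele with a Cre transgene active in mature OLs and had received tamoxifen, which switches the tag on through the Cre. The transgene is also active in Schwann cells, the myelinating cells of peripheral nerve, so the tag is not limited to the central nervous system in principle. The labels give female mice of 10 to 12 weeks at injury, while the methods of the study give a younger range. The study states that naive and dpi 42 tissue was taken on the same day, equally long after tamoxifen. In the changes at dpi 2 and dpi 10 against naive, injury therefore cannot be told apart from age and time since tamoxifen. At dpi 42 the labels of 1 OL and 1 total RNA library conflict on the kind of RNA, and the kind named in the count table was used.

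Depth was 25840127 to 32987841 counts per library (median 29062636). The 8 mature OL markers were all enriched in OL libraries in each of the 4 groups, while microglia and macrophage, neuronal and endothelial markers were all depleted. Astrocyte markers were not, with 0, 0, 1 and 0 of 7 depleted in naive tissue and at dpi 2, 10 and 42. Their medians were -0.28, -0.71, -0.86 and -0.25 log2 units. Of 5 Schwann cell markers 0, 1, 2 and 1 were enriched (median 0.40, 1.20, 1.73 and 1.22). Fibroblast markers were depleted for 4, 5, 6 and 5 of 6, with 1 enriched in naive tissue. Pericyte markers were depleted for 5, 5, 5 and 3 of 5, and OL precursor markers for 5, 5, 5 and 4 of 5. Several libraries stood apart. OL library 3 of naive tissue had an astrocyte marker sum of 12231 CPM (counts scaled to a common library size), against 2455 and 2231 in OL libraries 1 and 2, and a Schwann cell marker sum of 636 CPM against 1.89 and 1.82. In the injured groups the Schwann cell sum in OL was 214 to 677, 876 to 1548 and 1208 to 1404 CPM at dpi 2, 10 and 42, and its part in the results was not tested. OL libraries 1 and 2 of dpi 42 had astrocyte sums of 14711 and 12803 CPM, against 2850 in library 3. Both libraries of dpi 2 pool 2 held 2414 to 2604 counts on 4 Y-linked genes, against at most 13 in the other 22 libraries, which goes against the female label. Values with such a library left out are given for a part of the cases in which they change a call or a direction. Cases not given below include total RNA changes of Igfbp2, Igfbp4 and Igfbp5 that passed without naive OL library 3. The CPM scaling was done with TMM, a method that corrects for a few very abundant mRNAs, and all adjusted p-values are from edgeR's quasi-likelihood F test with the Benjamini-Hochberg adjustment over the 17167 genes tested. Fold changes carry their standard error (SE), and a gene was called at an adjusted p under 0.05 with no limit on the fold.

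IGF-1 and IGF-2 are secreted peptides that act through the IGF-1 receptor, a tyrosine kinase, whereas the IGF-2 receptor takes IGF-2 into the cell for degradation and also sorts lysosomal enzymes. The IGF binding proteins hold the ligands outside the cell and can restrain or prolong their action, with IGFBP-6 preferring IGF-2 and IGFBP-7 binding IGFs only weakly. In the central nervous system IGF-1 is a known survival and myelination factor for cells of the OL lineage, and it is produced by several cell types, microglia and macrophages among them.

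In outline, Igf1, Igf2, Igfbp3 and Igfbp6 were lower in OL than in total RNA libraries in each group, Igfbp7 was lower in all but dpi 42, and Igf1r was the only member that was higher in OL in each group. After SCI, Igf1, Igfbp3, Igfbp6 and Igfbp7 were higher than naive in both OL and total RNA at dpi 2, dpi 10 and dpi 42. Igf2 was higher in total RNA at each time and in OL at dpi 10 and dpi 42. Igf1r in OL was higher than naive at dpi 2 and lower at dpi 10 and dpi 42.

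The counts of members called stand beside the same over all genes. In naive tissue, 1 of 10 members was higher in OL (24.9% of all genes were) and 5 were lower (30.5%). At dpi 2 the members were 1 higher (24.8%) and 6 lower (28.8%), at dpi 10 they were 1 higher (25.2%) and 8 lower (28.8%), and at dpi 42 they were 1 higher (24.9%) and 4 lower (28.9%). The median OL enrichment of the 10 members was -1.61 in naive tissue, -2.68 at dpi 2, -2.27 at dpi 10 and -1.13 at dpi 42 on the log2 scale, beside -0.27, -0.19, -0.22 and -0.18 for all genes. The naive median was the same with Igf2 set to its bound.

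In the OL libraries, 6 members rose at dpi 2 (18.4% of all genes did) and 0 fell (20%). At dpi 10, 5 rose (9.62%) and 1 fell (8.59%), and at dpi 42 again 5 rose (16.2%) and 1 fell (16.9%). Members had a median OL change of 1.96 log2 units at dpi 2. Medians of the later times were 1.53 at dpi 10 and 1.92 at dpi 42 (1.04 and 1.46 with Igf2 at its bound), and the median of all genes was 0 at each time. In total RNA, 6 members rose at dpi 2 (16.4%), 6 at dpi 10 (13.9%) and 6 at dpi 42 (10.4%), whereas 0, 1 and 0 fell (20.8%, 18.2% and 12.1%). The total RNA medians were 1.88, 2.00 and 2.25, beside -0.10, -0.10 and -0.083 for all genes. Without OL library 3 of naive tissue, 7, 8 and 10 members were called in the OL change at dpi 2, 10 and 42, beside 39.1%, 19.7% and 36% of all genes in either direction. In that fit all 10 were called in naive OL enrichment, beside 57.7% of all genes.

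**Figure D1:**
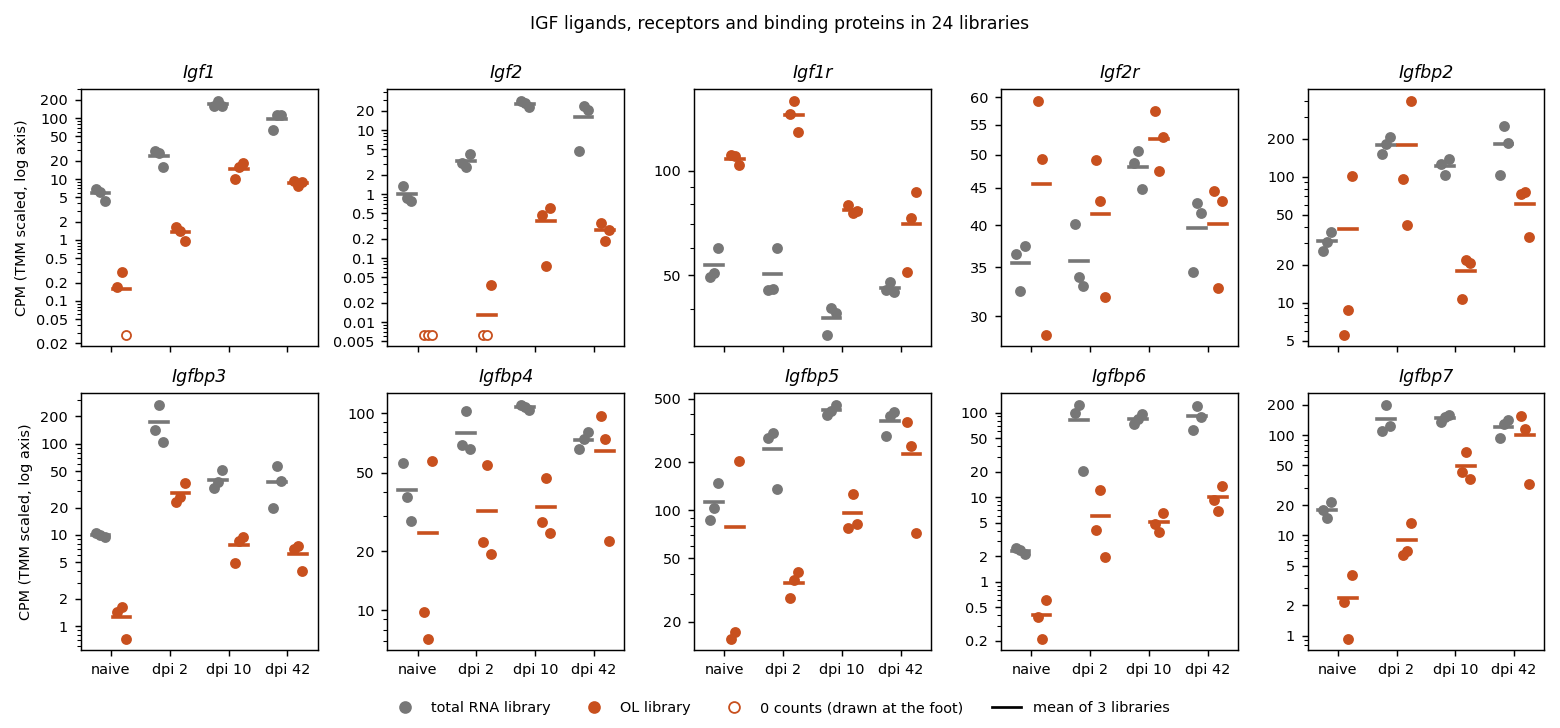
Each panel plots 1 gene, with CPM on a log axis against group, for 3 total RNA libraries (grey) and 3 OL libraries (orange) per group in the order of the tissue pools; short lines are means of the 3 libraries and open circles mark 0 counts. Igf1 in total RNA runs from 4.44 CPM in naive tissue to 193 CPM at dpi 10, Igf1r is the gene whose OL points sit above its total RNA points within each group, and OL library 3 of naive tissue sits far above OL libraries 1 and 2 for Igfbp2, Igfbp4 and Igfbp5.

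Igf1 (ENSMUSG00000020053, GRCm38 chr10:87858265-87937042, plus strand) encodes IGF-1. Total RNA held 6.98, 6.13 and 4.44 CPM in the naive pools, 29.1, 27.3 and 15.9 CPM at dpi 2, 161, 193 and 157 CPM at dpi 10, and 65.1, 111 and 112 CPM at dpi 42. The OL libraries held 0.168, 0.296 and 0 CPM in naive tissue (4, 7 and 0 counts), 1.66, 1.42 and 0.956 CPM at dpi 2, 10, 15.5 and 18.3 CPM at dpi 10, and 9.37, 7.62 and 9.04 CPM at dpi 42. In both kinds of RNA every injured library lay above every naive one, with the highest values at dpi 10.

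The total RNA change of Igf1 was 2.04 ± 0.30 log2 units at dpi 2 (4.11-fold, adjusted p = 1.8e-05), 4.86 ± 0.34 at dpi 10 (29.1-fold, 1.16e-09) and 4.04 ± 0.33 at dpi 42 (16.4-fold, 1.94e-08). In OL the change was 3.13 ± 0.55 at dpi 2 (adjusted p = 0.000104), 6.57 ± 0.47 at dpi 10 (4.31e-09) and 5.81 ± 0.47 at dpi 42 (2.82e-08), from a naive level of 0 to 7 counts per library. Igf1 remained depleted in OL throughout, by -5.24 ± 0.48 in naive tissue, -4.16 ± 0.35 at dpi 2, -3.54 ± 0.32 at dpi 10 and -3.47 ± 0.32 at dpi 42 (adjusted p at most 7.11e-09). The difference between the OL and total RNA changes was 1.09 ± 0.66, 1.70 ± 0.63 and 1.77 ± 0.63 and did not pass (adjusted p = 0.324, 0.11 and 0.0897). With the DESeq2 Wald test it passed at dpi 10 (1.72, adjusted p = 0.039) and dpi 42 (1.80, 0.0269). The dpi 2 rise in OL did not pass when only naive and dpi 2 OL libraries were fitted (3.18, adjusted p = 0.102).

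Markers of microglia and macrophages moved with Igf1. The summed level of the 10 markers in total RNA was 219 to 262 CPM in naive tissue, 1388 to 1633 at dpi 2, 3745 to 5050 at dpi 10 and 2172 to 3229 at dpi 42. In OL it was 19 to 26.1, 81.5 to 103, 251 to 282 and 160 to 260 CPM, and no marker was at 0 in any group. Of the 10 markers, 9, 9 and 9 rose and 1, 0 and 0 fell in OL at dpi 2, 10 and 42 (median change 2.78, 3.98 and 3.20 log2 units). In the same order 9, 10 and 9 rose in total RNA (2.83, 3.70 and 3.19). Their median OL enrichment lay between -3.82 and -3.56 in the 4 groups. Igf1 lay below that range in naive tissue (-5.24) and at dpi 2 (-4.16), and just above it at dpi 10 (-3.54) and dpi 42 (-3.47). Their part in the Igf1 values was not tested, and in whole tissue more cells of a type and more RNA per cell cannot be told apart.

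**Figure D2:**
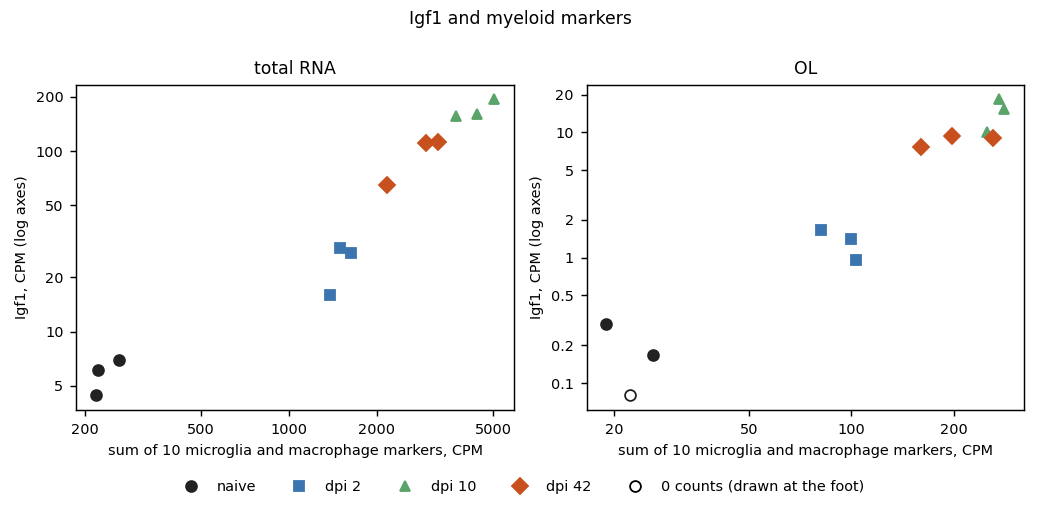
Igf1 CPM is plotted against the summed CPM of 10 microglia and macrophage markers, both on log axes, for the 12 total RNA libraries (left) and the 12 OL libraries (right); each point is 1 library, its shape and colour give the group, and the open circle is a library with 0 Igf1 counts. Naive libraries lie lowest on both axes (219 to 262 CPM of markers in total RNA) and dpi 10 libraries highest in total RNA (3745 to 5050 CPM).

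Igf2 (ENSMUSG00000048583, chr7:142650766-142666816, minus strand) encodes IGF-2. In total RNA it was at 1.34, 0.87 and 0.792 CPM in the naive pools, 3.05, 2.63 and 4.2 CPM at dpi 2, 28.7, 26.2 and 22.7 CPM at dpi 10, and 4.76, 23.5 and 20.3 CPM at dpi 42. The groups did not overlap with naive at any time, and pool 1 of dpi 42, which holds the libraries with conflicting labels, lay well below pools 2 and 3. The total RNA change was 1.71 ± 0.53 at dpi 2 (adjusted p = 0.016), 4.68 ± 0.59 at dpi 10 (6.04e-06) and 4.01 ± 0.57 at dpi 42 (4.77e-05). The dpi 2 rise fell short without total RNA library 3 of dpi 2 (1.50, adjusted p = 0.056), without naive total RNA library 2 (1.62, 0.06) or library 3 (1.57, 0.0655), and without naive pool 2 (1.62, 0.0576) or pool 3 (1.57, 0.054).

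In the OL libraries Igf2 was close to the limit of these counts. There were 0, 0 and 0 counts in naive tissue, 0, 0 and 1 at dpi 2, 12, 2 and 16 at dpi 10, and 10, 5 and 7 at dpi 42. Against a floor of 3 counts per library, naive OL was at least 8.18-fold lower than naive total RNA (adjusted p = 1.55e-05), and no fold is given for dpi 2 against naive, since both were at or under the floor. The dpi 10 and dpi 42 OL means were at least 3.13-fold and at least 2.2-fold higher than naive OL, and both changes were called (adjusted p = 0.00262 and 0.00348). They were not when only the compared groups were fitted (adjusted p = 0.102 and 0.105). At dpi 2 the pooled counts were 254-fold higher in total RNA than in OL, with an exact 95% counting interval of 45.3 to 10063. The count table also lists Gm49394, a gene on the same strand that shares 3596 of the 5723 exon bases of Igf2 and has 0 counts in all libraries. How reads in the shared part were counted is not given in the sources used here, so the level of Igf2 per length is uncertain.

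Igf1r (ENSMUSG00000005533, chr7:67952827-68233668, plus strand) encodes the receptor through which both ligands signal. The OL libraries held 111, 110 and 104 CPM in naive tissue, 146, 159 and 129 CPM at dpi 2, 79.8, 75.4 and 76.4 CPM at dpi 10, and 50.9, 72.8 and 86.5 CPM at dpi 42. Total RNA held 49.4, 50.8 and 59.7 CPM in naive tissue, 45.4, 45.7 and 59.7 CPM at dpi 2, 33.7, 40.3 and 38.9 CPM at dpi 10, and 45.2, 47.8 and 44.6 CPM at dpi 42. Within each group all 3 OL libraries lay above all 3 total RNA libraries. Among the OL libraries, those of dpi 2 lay above naive and those of dpi 10 and dpi 42 below naive, with no overlap.

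Igf1r was enriched in OL by 1.02 ± 0.15 log2 units in naive tissue (2.03-fold, adjusted p = 3.67e-06), 1.52 ± 0.15 at dpi 2 (2.87-fold, 2.14e-08), 1.04 ± 0.15 at dpi 10 (2.05-fold, 3.89e-06) and 0.61 ± 0.15 at dpi 42 (1.53-fold, 0.00127). With library sizes alone, the dpi 42 value was 0.10 (adjusted p = 0.536). The OL level fell by 0.90 ± 0.15 from dpi 2 to dpi 10 (adjusted p = 0.000113). Against naive the OL change was 0.41 ± 0.15 at dpi 2 (adjusted p = 0.0287), -0.49 ± 0.15 at dpi 10 (0.0224) and -0.63 ± 0.15 at dpi 42 (0.00212).

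The smaller Igf1r changes depended on which libraries were in the fit, including libraries outside the comparison. Without dpi 10 OL library 1, the OL change at dpi 2 was 0.35 (adjusted p = 0.0842). Without naive OL library 1, the total RNA change at dpi 10 was -0.38 (0.0727). It was also -0.38 without naive OL library 2 or 3, or without any of the dpi 2 or dpi 10 OL libraries. For the total RNA change those fits repeat the same shift of the fold and are not separate, and its cause was not tested. The rise in OL at dpi 2 did not pass in 14 of the 36 fits that left out a library or a pool (0.28 to 0.43 in all 36), among them those without naive OL library 1, 2 or 3 (adjusted p = 0.112, 0.13 and 0.156), without dpi 2 OL library 1 or 2 (0.142 and 0.212), and pool 2 of dpi 2 (0.34, adjusted p = 0.114), which carries the Y-linked counts. The OL fall at dpi 10 did not pass in 9 of the 36, such as with any of the 3 dpi 10 OL libraries left out (adjusted p = 0.0553, 0.0848 and 0.0757), or without naive OL library 1 or 2 (0.0828 and 0.0716). The OL fall at dpi 42 passed in every fit that left out a library or pool, at -0.88 to -0.44, and missed the threshold only with the 2 compared groups alone (-0.59, adjusted p = 0.0561). Within dpi 42, Igf1r was lowest in OL libraries 1 and 2, which had the highest astrocyte sums and mature OL sums of 103467 and 114504 CPM, against 137141 CPM in library 3, and their part in the Igf1r value was not tested. In total RNA Igf1r fell at dpi 10 (-0.50 ± 0.15, adjusted p = 0.0109) but did not pass in 14 of the 36, such as without total RNA library 1 of dpi 10 (-0.43, 0.0586) or library 3 of naive tissue (-0.41, 0.0648). It also missed the threshold with TMM on a total RNA reference (-0.35, 0.084) and with library sizes alone (-0.32, 0.0851). The change in OL enrichment was 0.50 ± 0.21, 0.014 ± 0.21 and -0.41 ± 0.21 at dpi 2, 10 and 42 (adjusted p = 0.121, 1 and 0.257). It passed at dpi 2 without total RNA library 3 of dpi 2 (0.64, 0.0488) or pool 1 of dpi 42 (0.50, 0.0478), and at dpi 42 without dpi 42 OL library 3 (-0.77, 0.0136).

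Igf2r (ENSMUSG00000023830, chr17:12682406-12769664, minus strand) encodes the receptor that clears IGF-2. In OL it ranged from 28.3 to 59.3 CPM in naive tissue, with library 3 the lowest, 31.9 to 49.1 CPM at dpi 2, 47.5 to 57.5 CPM at dpi 10 and 32.8 to 44.5 CPM at dpi 42. Total RNA ranged from 32.5 to 37.5, 33 to 40.1, 44.9 to 50.6 and 34.5 to 42.9 CPM in the same order. OL and total RNA ranges overlapped in each group. None of the 17 comparisons of Igf2r passed. The naive OL enrichment was 0.36 ± 0.20 (adjusted p = 0.13), and it passed in 12 of the 36 fits that left out a library or a pool, at up to 0.77 (0.000524) without naive OL library 3, and at 0.54 (0.0267) with TMM on a total RNA reference. Some of the 12 left out a library outside the comparison, such as dpi 2 OL library 1 (0.52, 0.0294). The value was 0.52 without any of the dpi 2, dpi 10 or dpi 42 OL libraries, so those fits repeat the same shift. With library sizes alone Igf2r was lower in OL at dpi 10 (-0.45, adjusted p = 0.0449) and dpi 42 (-0.49, 0.032), where the values with TMM were 0.13 and 0.017 (adjusted p = 0.602 and 0.978). The dpi 10 change in total RNA was 0.44 ± 0.20 (0.102), and it passed in 13 of the 36, and at 0.62 (0.0168) with library sizes alone and at 0.59 (0.031) with TMM on a total RNA reference. Some of the 13 left out an OL library, which is outside this comparison, such as naive OL library 1 (0.56, 0.0276). The value was also 0.56 without naive OL library 2 or 3, or without any of the dpi 2 or dpi 42 OL libraries. In OL, Igf2r fell at dpi 2 (-0.46, 0.0389) and dpi 42 (-0.49, 0.0284) when naive OL library 3 was left out.

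**Figure D3:**
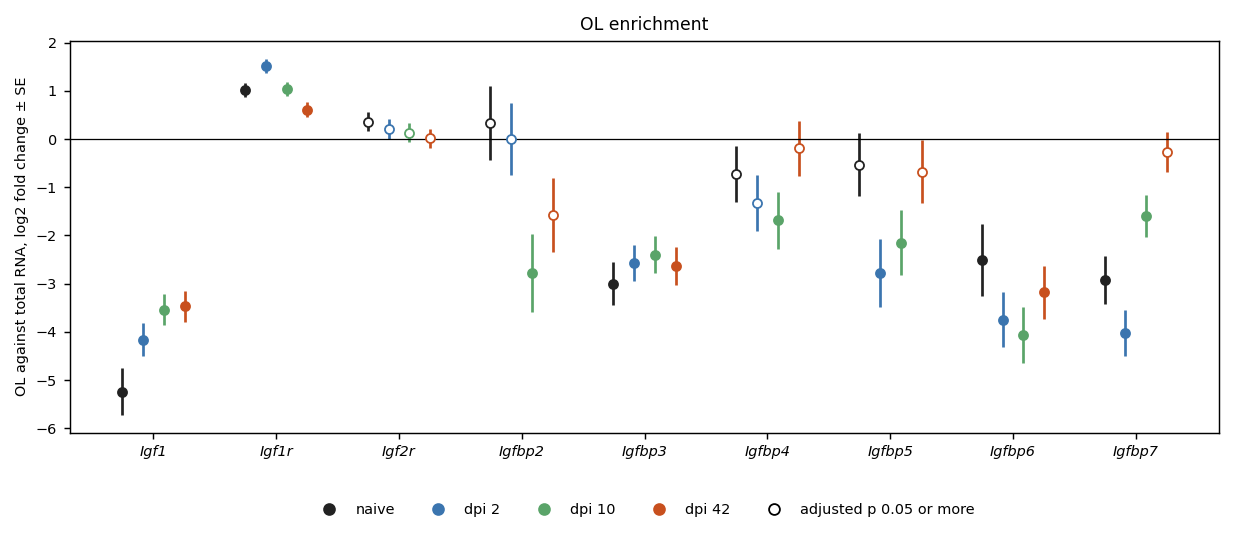
OL enrichment (log2 fold change of OL against total RNA within a group, with its SE) is plotted for 9 members in the 4 groups, each point resting on 3 OL and 3 total RNA libraries; open points have an adjusted p of 0.05 or more, and Igf2 is left out because its naive OL counts are 0. Igf1r lies above 0 in all 4 groups (0.61 to 1.52), Igf1, Igfbp3 and Igfbp6 lie below -2 in all of them, and Igfbp7 moves from -4.02 at dpi 2 to -0.27 at dpi 42.

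Among the binding proteins, Igfbp3, Igfbp6 and Igfbp7 rose at each time in both kinds of RNA, together with Igf1. For Igfbp3, which encodes the main IGF carrier of blood, total RNA held 10.4, 9.93 and 9.6 CPM in naive tissue, 141, 267 and 106 CPM at dpi 2, 32.4, 37.7 and 51.5 CPM at dpi 10, and 19.6, 56.4 and 39.2 CPM at dpi 42. In OL it held 1.43, 1.61 and 0.727 CPM, then 22.9, 26.2 and 37.1, then 4.93, 8.56 and 9.55, and last 6.96, 7.62 and 4.03 CPM. Every injured library lay above the naive ones of its kind, and dpi 2 was the highest group in both. The OL change was 4.52 ± 0.45 at dpi 2 (23-fold, adjusted p = 9.77e-08), 2.62 ± 0.44 at dpi 10 (0.000226) and 2.31 ± 0.44 at dpi 42 (0.000341), and the total RNA change was 4.10 ± 0.41, 2.02 ± 0.37 and 1.95 ± 0.37 (1.19e-07, 0.000255 and 0.00067). From dpi 2 to dpi 10 Igfbp3 fell by 1.90 ± 0.38 in OL (adjusted p = 0.000844) and by 2.08 ± 0.37 in total RNA (0.000974). It was depleted in OL by -3.00 ± 0.44 in naive tissue and by -2.57, -2.40 and -2.63 at dpi 2, 10 and 42 (adjusted p at most 1.75e-05).

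Igfbp6 encodes a binding protein with a preference for IGF-2. Its total RNA level was 2.52, 2.35 and 2.12 CPM in naive tissue, 99.6, 123 and 20.3 CPM at dpi 2, 73.5, 83.9 and 95.8 CPM at dpi 10, and 62.5, 118 and 89.7 CPM at dpi 42. The OL level was 0.378, 0.212 and 0.612 CPM (9, 5 and 16 counts), then 4.04, 12.1 and 1.95, then 4.85, 3.84 and 6.43, and last 9.33, 6.83 and 13.7 CPM. All injured libraries were above the naive ones, and pool 3 of dpi 2 was the lowest of its group in both kinds of RNA. The total RNA change was 5.12 ± 0.61, 5.17 ± 0.61 and 5.27 ± 0.61 at dpi 2, 10 and 42 (34.7-fold to 38.5-fold, adjusted p at most 2.81e-06), and the OL change was 3.87 ± 0.71, 3.62 ± 0.71 and 4.60 ± 0.71 (adjusted p = 0.000173, 0.00112 and 4.22e-05). OL enrichment was -2.51 ± 0.74 in naive tissue (adjusted p = 0.00625; -2.21, 0.0526 without naive pool 2) and -3.75, -4.06 and -3.18 at dpi 2, 10 and 42 (at most 4.4e-05).

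Igfbp7 encodes a secreted protein found around blood vessels and in extracellular matrix. Total RNA held 17.9, 14.8 and 21.5 CPM in naive tissue, 110, 200 and 123 CPM at dpi 2, 134, 152 and 157 CPM at dpi 10, and 94.3, 128 and 143 CPM at dpi 42. OL libraries held 2.14, 0.931 and 4.02 CPM, then 6.39, 7.01 and 13.3, then 42.6, 67.8 and 36.1, and last 155, 116 and 32.8 CPM. In OL each injured group lay above naive, the groups of dpi 10 and dpi 42 lay above dpi 2, and at dpi 42 libraries 1 and 2 were within the range of total RNA or above it while library 3 was not.

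The OL change of Igfbp7 was 1.90 ± 0.50 at dpi 2 (3.73-fold, adjusted p = 0.00424), 4.35 ± 0.51 at dpi 10 (20.5-fold, 3.93e-06) and 5.40 ± 0.53 at dpi 42 (42.3-fold, 3.32e-07). The total RNA change was 3.00 ± 0.46, 3.03 ± 0.46 and 2.75 ± 0.45 (adjusted p = 2.34e-05, 3.07e-05 and 0.000156). OL enrichment was -2.92 ± 0.50 in naive tissue, -4.02 ± 0.48 at dpi 2, -1.60 ± 0.43 at dpi 10 and -0.27 ± 0.42 at dpi 42 (adjusted p = 3.17e-05, 4.44e-07, 0.00367 and 0.624). Its OL change exceeded its total RNA change at dpi 42 by 2.65 ± 0.65 (adjusted p = 0.014). Igfbp7 was the only member with a called difference between these changes. In the differential OL enrichment tests, 0 members passed at dpi 2 (14.1% of all genes did), 0 at dpi 10 (7.65%) and 1 at dpi 42 (7.84%). At an unadjusted p under 0.05 there were 2, 2 and 2 members, and the DESeq2 Wald test called 0, 1 and 2. The shares of all genes for these counts are not given here, so the counts cannot be set against all genes. With naive OL library 3 left out, Igfbp4 (1.90, adjusted p = 0.0497), Igfbp5 (1.92, 0.031) and Igf2r (-0.75, 0.0363) were called at dpi 42 as well. The difference of Igfbp2 at dpi 10 was -3.11 ± 1.11 (0.0966) and passed with naive OL library 1 (-3.74, 0.0331) or 2 (-3.70, 0.0469) left out, but was -0.78 (0.678) with naive OL library 3 left out.

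The dpi 42 difference of Igfbp7 was 2.05 (adjusted p = 0.064) when dpi 42 OL library 1 was left out and 2.11 (0.0576) when naive OL library 2 was. It was 2.05 (0.0836) with pool 1 of dpi 42, the pool with conflicting labels, left out. It was 2.59 (0.0612) without pool 2 of dpi 42, and 2.59 (0.0628) and 2.40 (0.06) without naive pools 1 and 2. With the OL and total RNA groups of naive and dpi 42 alone it was 2.67 (0.0537). Among the 36 fits that left out a library or a pool, the value ranged from 2.05 to 3.20 and missed the threshold in these 6. Igfbp7 shares 85 exon bases with the antisense gene Polr2b, and the strand setting of the counting is not given in the sources used here.

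**Figure D4:**
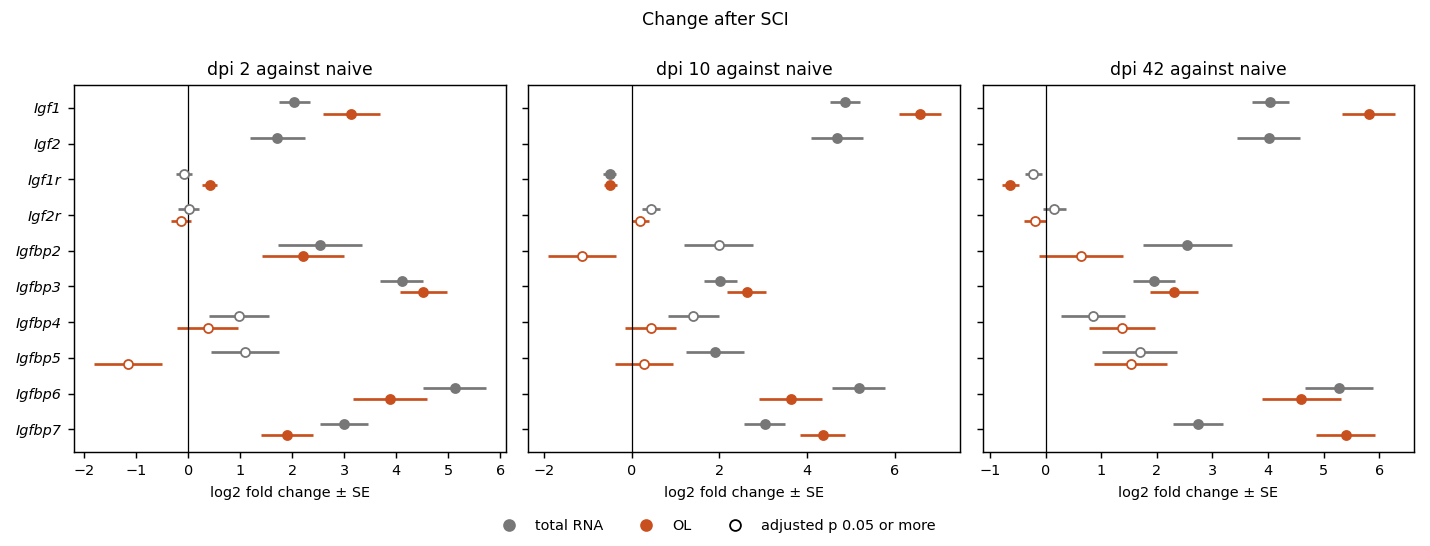
The change after SCI (log2 fold change against naive, with its SE) is plotted for each member at dpi 2, 10 and 42, in total RNA (grey) and in OL (orange), each point resting on 3 injured and 3 naive libraries; open points have an adjusted p of 0.05 or more, and Igf2 in OL is left out because its naive counts are 0. Igf1, Igfbp3, Igfbp6 and Igfbp7 lie right of 0 in all 3 panels in both kinds of RNA, and the OL point of Igfbp7 lies left of its total RNA point at dpi 2 (1.90 and 3.00) and right of it at dpi 42 (5.40 and 2.75).

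Igf1, Igfbp3, Igfbp6 and Igfbp7 were above naive at each time in both kinds of RNA, although their courses between the times differed, and the 120 bases just before their transcription starts (RefSeq, GRCm38.p6, 1 start for each gene) were examined. For Igf1 all 120 bases lie in an exon annotated by GENCODE M21, and the sequence is not printed. The other 3 have no annotated exon base and are given 5′ to 3′ on the strand of the gene, with the letters matched by a motif in capitals.
Igfbp3: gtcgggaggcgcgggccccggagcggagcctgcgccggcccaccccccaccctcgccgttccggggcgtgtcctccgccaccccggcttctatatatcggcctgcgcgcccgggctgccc
Igfbp6: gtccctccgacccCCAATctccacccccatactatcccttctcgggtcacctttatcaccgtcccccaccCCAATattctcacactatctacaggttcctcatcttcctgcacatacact
Igfbp7: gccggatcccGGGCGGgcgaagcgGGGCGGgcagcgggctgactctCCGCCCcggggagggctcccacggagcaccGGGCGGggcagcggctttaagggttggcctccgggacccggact
They are at chr11:7213924-7214043 (minus strand), chr15:102144066-102144185 (plus strand) and chr5:77408046-77408165 (minus strand). Both strands were searched for the TATA box TATAAA, the CCAAT box CCAAT, the GC box GGGCGG, the AP-1 site TGANTCA, the E-box CACGTG and the FOXO site GTAAACA, which do not overlap with each other in these windows.

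Igfbp6 holds 2 CCAAT boxes, which 21.3% of 32851 promoter windows of this length hold at least once, and its RefSeq start lies before the GENCODE M21 gene start. Igfbp7 holds 4 GC boxes, a motif present in 26.5% of windows, and Igfbp3 holds no match. TATAAA is in 6.34% of windows, TGANTCA in 3.41%, CACGTG in 3.66% and GTAAACA in 1.36%. The 3 windows share no motif of this set, and a match describes letters only.

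Igfbp2, Igfbp4 and Igfbp5 differed so much between OL libraries that single libraries decided several calls. Igfbp2 encodes the most abundant IGF binding protein of cerebrospinal fluid. In total RNA it rose from 25.9, 30.3 and 36.5 CPM in naive tissue to 151, 181 and 205 CPM at dpi 2 (2.53 ± 0.80, adjusted p = 0.0161) and to 104, 252 and 185 CPM at dpi 42 (2.55 ± 0.80, 0.0256). At dpi 10 it was at 125, 104 and 138 CPM (1.98 ± 0.79, 0.0596), with every library above naive. The dpi 10 rise passed with only the total RNA groups compared (2.13, 3.07e-09) and with TMM on a total RNA reference (2.13, 0.0483). It also passed with the DESeq2 Wald test (2.04, 0.0355), but not with library sizes alone. The dpi 2 rise fell short without naive total RNA library 1 (2.42, 0.06) or 2 (2.52, 0.0524). At dpi 42 the value was 2.23 to 2.68 and did not pass without naive total RNA library 1, 2 or 3 or dpi 42 total RNA library 2 or 3 (adjusted p = 0.0547 to 0.0891).

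The OL libraries held 5.59, 8.67 and 102 CPM of Igfbp2 in naive tissue, 95.5, 41.3 and 400 CPM at dpi 2, 10.7, 22 and 20.7 CPM at dpi 10, and 73.3, 75.7 and 33 CPM at dpi 42. Library 3 was far above the other two in naive tissue and at dpi 2. Igfbp2 in OL rose at dpi 2 (2.20 ± 0.79, adjusted p = 0.0325), but the value was 0.76 (0.455) when dpi 2 OL library 3 was left out. With naive OL library 1 or 2 left out, it was 1.62 (0.12) or 1.66 (0.132). It fell by 3.33 ± 0.83 from dpi 2 to dpi 10 (adjusted p = 0.00576), and the value was -1.89 (0.0735) without dpi 2 OL library 3. OL enrichment was 0.33 ± 0.77 in naive tissue (adjusted p = 0.747) and turned to -1.96 (0.0136) without naive OL library 3. Without that library the OL change was 4.58 at dpi 2 (3.28e-05), 1.32 at dpi 10 (0.169) and 3.02 at dpi 42 (0.0014), beside 2.20, -1.13 ± 0.78 (0.36) and 0.64 (0.583) with it. At dpi 10 Igfbp2 was depleted in OL by -2.78 ± 0.81 (adjusted p = 0.00662; -2.50, 0.0564 without pool 1 of dpi 10).

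Igfbp5 encodes a binding protein that also attaches to extracellular matrix, and its gene lies tail to tail with Igfbp2 on chromosome 1, with 5457 bases between their ends. Total RNA held 87.4, 104 and 148 CPM in naive tissue, 284, 305 and 136 CPM at dpi 2, 398, 417 and 458 CPM at dpi 10, and 291, 389 and 414 CPM at dpi 42. The dpi 10 and dpi 42 libraries were all above naive, while dpi 2 overlapped through library 3. The change was 1.90 ± 0.67 at dpi 10 (adjusted p = 0.0336), which did not pass with any of the 6 libraries compared left out (1.75 to 2.15, 0.054 to 0.113). It was 1.09 ± 0.66 at dpi 2 (0.208) and 1.69 ± 0.67 at dpi 42 (0.0759), and both passed with only the total RNA groups compared (1.21, 0.00315, and 1.80, 1.75e-05). In OL it held 15.7, 17.4 and 203 CPM in naive tissue, 28.1, 36.7 and 40.9 CPM at dpi 2, 78.1, 127 and 81.8 CPM at dpi 10, and 357, 252 and 72.3 CPM at dpi 42, so that naive library 3 lay above all dpi 2 and dpi 10 libraries.

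The OL change of Igfbp5 was -1.16 ± 0.66, 0.28 ± 0.65 and 1.53 ± 0.66 at dpi 2, 10 and 42 (adjusted p = 0.184, 0.862 and 0.0847). Without naive OL library 3 it was 1.02 at dpi 2 (0.0699), 2.53 at dpi 10 (0.000483) and 3.71 at dpi 42 (8.11e-06), so that the sign at dpi 2 turned. Without naive OL library 1 or 2 the dpi 2 value was -1.71 (0.0382) or -1.70 (0.0423). OL enrichment was -0.53 ± 0.65 in naive tissue (0.519), or -2.62 (5.03e-05) without naive OL library 3 and -1.58 (0.0496) with a block for the tissue pools. It was -2.78 ± 0.70 at dpi 2 (0.00201), -2.15 ± 0.68 at dpi 10 (0.0106) and -0.68 ± 0.65 at dpi 42 (0.393). The dpi 10 call was lost without pool 1 or pool 3 of dpi 10 (-2.07, 0.0622, and -1.99, 0.07).

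Igfbp4 encodes a binding protein cut by the protease PAPP-A, which frees the ligand. Its total RNA level was 56, 37.4 and 28.5 CPM in naive tissue, 69.2, 103 and 66.1 CPM at dpi 2, 110, 108 and 104 CPM at dpi 10 and 65.5, 74.1 and 80.3 CPM at dpi 42, with no overlap between injured and naive libraries. The changes of 0.97 ± 0.58, 1.40 ± 0.58 and 0.85 ± 0.58 did not pass (adjusted p = 0.204, 0.0718 and 0.318), but did with only the total RNA groups compared (1.09, 1.55 and 0.97; adjusted p = 0.00228, 1.87e-06 and 0.00213), a fit in which the spread of the OL libraries has no part. The OL libraries held 9.79, 7.19 and 57 CPM, then 22.1, 54.3 and 19.3, then 28, 47.1 and 24.7, and last 97, 73.9 and 22.5 CPM. Naive library 3 lay within the range of the injured ones and libraries 1 and 2 below all of them. The OL change was 0.37, 0.43 and 1.38 (adjusted p = 0.681, 0.695 and 0.0768), and 1.84, 1.97 and 2.85 without naive OL library 3 (0.00495, 0.00694 and 0.000185). Igfbp4 was depleted in OL at dpi 10 (-1.69 ± 0.59, 0.0195), a call lost without dpi 10 OL library 1 (-1.54, 0.0708) or 3 (-1.48, 0.0769). In naive tissue its OL enrichment was -0.72 ± 0.58 (0.309), or -2.10 (0.00102) without naive OL library 3. At dpi 2 its OL enrichment was -1.32 ± 0.58 (0.0625), which passed with a block for the tissue pools (-1.44, 0.0482).

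Astrocyte markers varied along with these binding proteins among OL libraries. The sum of the 7 markers was 2455, 2231 and 12231 CPM in naive OL libraries 1, 2 and 3, 4149, 2533 and 9669 CPM at dpi 2, 2854, 7623 and 3296 CPM at dpi 10, and 14711, 12803 and 2850 CPM at dpi 42. In total RNA it was 6857 to 9392 CPM in all 12 libraries. The OL library with the highest astrocyte sum of its group was also the highest for Igfbp5 and Igfbp7 in 4 of 4 groups, and for Igfbp2 and Igfbp4 in 3 of 4. For Igfbp6 the highest OL library was the same as that of the endothelial and of the pericyte sum in 4 of 4 groups. In total RNA the match with the astrocyte sum held in 0 of 4 groups for Igfbp5 and Igfbp7, 2 for Igfbp2 and 1 for Igfbp4. There, Igfbp6 matched the endothelial sum in 1 and the pericyte sum in 2 of 4 groups. These pairs were picked from all members and several marker lists, and with 3 libraries per group some matches arise by accident. None of the 7 astrocyte markers was at 0 in any group, and the part of these cell types in the values was not tested. For Igfbp7, all 3 dpi 10 OL libraries (36.1 to 67.8 CPM) lay above naive library 3 (4.02 CPM), whose astrocyte sum was higher than theirs, while the sums of naive libraries 1 and 2 were lower than theirs. Fibroblast markers in OL summed to 47.9 to 83.5 CPM in naive tissue and 201 to 268, 522 to 606 and 205 to 269 CPM at dpi 2, 10 and 42, and all 6 rose at each time in both kinds of RNA. Endothelial markers in OL summed to 4.71 to 5.97 CPM in naive tissue and 12.1 to 21.2 CPM at dpi 2, when Igfbp3 was highest, and 5 of 6 rose in OL and 4 of 6 in total RNA at that time. Pericyte markers in OL summed to 4.78 to 15.1, 9.68 to 24.7, 23.5 to 40.4 and 43.2 to 46.8 CPM in the 4 groups in order. The part of these in Igfbp3, Igfbp6 and Igfbp7 was not tested.

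**Figure D5:**
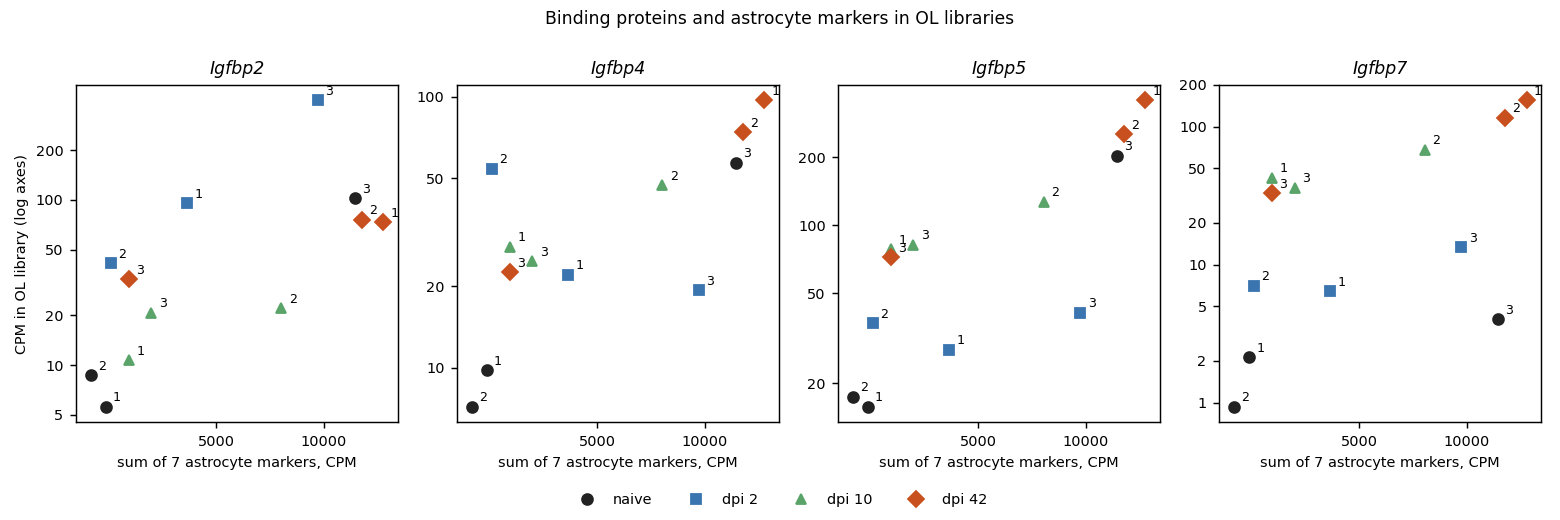
CPM of 4 binding protein genes is plotted against the summed CPM of 7 astrocyte markers in the 12 OL libraries, on log axes; each point is 1 library, its shape and colour give the group and its number the tissue pool. Naive library 3 lies at 12231 CPM of astrocyte markers, far right of naive libraries 1 and 2, and is above them for all 4 genes, and the dpi 10 points for Igfbp7 (36.1 to 67.8 CPM) lie above naive library 3 (4.02 CPM).

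Of the steps between injured groups, those from dpi 2 to dpi 10 and from dpi 10 to dpi 42 were tested. From dpi 2 to dpi 10, 3 members rose in OL (11.7% of all genes did) and 3 fell (10.6%): Igf1 rose by 3.44 ± 0.35 (adjusted p = 4.3e-07) and Igfbp7 by 2.46 ± 0.46 (0.000459), and Igf2 had a pooled count 29.6-fold higher at dpi 10 (counting interval 4.92 to 1208, adjusted p = 0.00456, or 0.23 with only these groups compared), whereas Igf1r, Igfbp2 and Igfbp3 fell as given above. In total RNA 2 members rose (3.31%), Igf1 by 2.82 ± 0.30 (4.84e-06) and Igf2 by 2.97 ± 0.53 (0.00139), and 1 fell (4.53%), which was Igfbp3. From dpi 10 to dpi 42, edgeR called 0 members in either direction in OL (3.28% of genes rose and 3.9% fell) and 0 in total RNA (0.0583% rose and 0.204% fell). There were 3 and 1 members at an unadjusted p under 0.05, and the DESeq2 Wald test called 0 and 0, for which the shares of all genes are not given here. The Igf1 step from dpi 10 to dpi 42 was -0.75 ± 0.30 in OL (adjusted p = 0.13) and -0.82 ± 0.29 in total RNA (0.258). With only the total RNA groups of dpi 10 and dpi 42 compared, Igf1 (-0.85, adjusted p = 0.00975) and Igfbp4 (-0.57, 0.0048) fell. In OL, Igfbp7 passed without dpi 42 OL library 3 (1.39, 0.0165) and Igfbp5 without naive OL library 3 (1.18, 0.0499).

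Levels of different genes were compared as CPM per kilobase of exon. In naive total RNA, Igfbp5 (18.9 ± 5.23, SD, n = 3), Igfbp2 (16.7 ± 2.9) and Igfbp7 (15 ± 2.78) were highest, and they differed by less than the SD of Igfbp5. Igfbp4 (9.2 ± 3.17) followed, then Igf2r (3.81 ± 0.283), Igf1r (3.18 ± 0.333), Igfbp3 (3.18 ± 0.121) and Igfbp6 (2.1 ± 0.181), and the ligands were lowest, Igf1 at 0.591 ± 0.131 and Igf2 at 0.175 ± 0.0522. At dpi 10 Igfbp7 led at 122 ± 9.8, followed by Igfbp6 at 75.9 ± 10, Igfbp5 at 70.6 ± 5.12 and Igfbp2 at 66 ± 9.25, the last 3 within about an SD of each other. Igf1 was at 17.2 ± 1.97, and Igf1r was lowest at 2.24 ± 0.207. In naive OL the receptors had 6.45 ± 0.234 (Igf1r) and 4.9 ± 1.7 (Igf2r) CPM per kilobase, and Igf1 had 0.0156 ± 0.015. Igfbp2 (21.1 ± 29.8) and Igfbp5 (13.1 ± 17.9) had SDs above their means there, with library 3 far above libraries 1 and 2.

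Further genes of the IGF and insulin system outside the cell or at its surface, 12 in all, behaved in several ways. Igfbp1, Ins1 and Ins2 had 0 counts in all 24 libraries, which left 9 tested. Insr, the insulin receptor, was the only one of them enriched in OL, by 0.69 in naive tissue and 0.60 to 0.67 later (adjusted p at most 0.0022), and it fell in OL at dpi 2 (-0.43, 0.0302) and dpi 42 (-0.68, 0.00144). Pappa, which encodes the protease PAPP-A, was depleted in OL in all 4 groups (-5.01 to -2.50, adjusted p at most 0.00351). Igfbpl1, an IGF binding protein relative, had 0, 0 and 0 counts in naive OL, 15, 0 and 0 at dpi 2, 36, 46 and 24 at dpi 10, and 243, 158 and 24 at dpi 42. It was called higher than naive in OL at each time (adjusted p = 0.0466, 0.0036 and 0.000233), although at dpi 2 only library 1 had counts. Pappa2, a related protease, fell in OL at dpi 2, where counts were 0, 0 and 8 against 59, 37 and 16 in naive tissue (adjusted p = 0.00464), and its OL enrichment also changed there (adjusted p = 0.0372). In the OL change, 1 of the 9 rose and 2 fell at dpi 2 (18.4% and 20% of all genes did), 1 rose at dpi 10 (9.62%), and 1 rose and 1 fell at dpi 42 (16.2% and 16.9%), shares near those of all genes, with medians of 0, -0.32 and 0.

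The 29 genes of the signalling pathway inside the cell, from the receptor substrates to PI3 kinase, AKT, mTOR and FOXO, were all tested. In OL 4 rose and 19 fell at dpi 2 (18.4% and 20% of all genes did), 1 rose and 10 fell at dpi 10 (9.62% and 8.59%), and 3 rose and 17 fell at dpi 42 (16.2% and 16.9%), with medians of -0.57, -0.32 and -0.43 log2 units beside 0 for all genes. In total RNA 2 rose and 17 fell (16.4% and 20.8%), 3 rose and 11 fell (13.9% and 18.2%), and 2 rose and 12 fell (10.4% and 12.1%), with medians of -0.52, -0.25 and -0.36. At dpi 2 the OL change was -1.34 for Mtor, the kinase of both mTOR complexes (adjusted p = 7.56e-06), -1.41 for Gab1, a docking adaptor (4.7e-07), and -1.08 for Tsc1, an mTORC1 inhibitor (2.23e-06). The direct receptor substrates went separate ways in OL at dpi 2, Irs1 rising by 0.69 (0.00137) and Irs2 falling by 0.40 (0.0296), and Irs2 was lower at dpi 10 (-0.66, 0.00228) and dpi 42 (-0.65, 0.00119) as well. Akt1 and Akt2, kinases downstream of PI3 kinase, rose at dpi 2 (0.38, 0.00236, and 0.57, 0.00024). The OL enrichment of Shc1, an adaptor to the RAS pathway, was lower than naive at each time (-1.25, -1.38 and -1.37; adjusted p = 0.0144, 0.0132 and 0.014), and its total RNA level rose by 1.75, 1.84 and 1.49 (adjusted p at most 0.000105).

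By the Pearson correlation of log2 CPM over all 24 libraries, the genes most like Igf1 were Il10ra (r = 0.972), Mpeg1 (0.968) and Trem2 (0.967), and those most like Igf2 included Csf1r (0.966) and Slco2b1 (0.964). Trem2 and Csf1r are among the microglia and macrophage markers above. For Igf1r they were Mvd (0.955), Ncbp1 (0.954) and Canx (0.952), and for Igf2r, with weaker likeness, Dnmt3a (0.751), Celsr1 (0.730) and Stat2 (0.718). The nearest genes were Efemp2 (0.921), Hmgn1 (0.906) and Ltbp1 (0.902) for Igfbp2, Rpl12 (0.966), Alox5ap (0.964) and Spp1 (0.961) for Igfbp3, Plscr4 (0.922), Fam129a (0.916) and Pdgfrb (0.914) for Igfbp4, and Nnat (0.956), Sod3 (0.953) and Fcgrt (0.949) for Igfbp5. For Igfbp6 they were Moxd1 (0.973), Cyba (0.969) and Itih2 (0.969), and for Igfbp7 Icam1 (0.967), Ptms (0.942) and Steap4 (0.936). These 24 points share the 8 groups and the split between OL and total RNA, so the values describe the pattern over groups.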

How the data were processed

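Counts of reads per gene were deposited by the authors as a single table without normalization. Per the labels and the study's methods, the authors checked reads with FastQC 0.10.1, aligned them with STAR to mm10 and counted them with HTSeq 0.10.0; the strand setting and the annotation release are not given in the sources used here. All 24 columns were used. Groups follow the labels, and pools follow the sample numbers. Genes with at least 10 counts in all (17167 of 21965) were tested in R 4.3.3 with edgeR 4.0.16: TMM scaling (factors of 0.742 to 0.899 in OL libraries, 1.1 to 1.29 in total RNA libraries), 1 mean per group, 17 contrasts, and a quasi-likelihood F test. The steps were tested on simulated data. DESeq2 1.42.0 served as an alternative, and 45 alternative settings were run. Replicates differed by more than sampling noise (median chi-square per gene 2.51 to 21.1). A count of 3 in a library was the floor for bounds, and intervals cover counting error only.

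OL and total RNA libraries come from the same tissue pool. Their deviations from the group means correlated for the same pool at r = 0.0408 to 0.137 in naive tissue, 0.0879 to 0.108 at dpi 2, 0.0245 to 0.063 at dpi 10 and -0.0109 to 0.02 at dpi 42, so at dpi 42 the pairing rests on the sample names. The fit has no pool term; a block is an alternative, by tissue pool for OL enrichment and its change and by replicate number, which pairs unrelated pools, for changes between times.

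Named genes are the 10 members, the 3 non-members most correlated with each (log2 CPM, prior count 2), and genes of the pathway lists that passed in an OL change or differential OL enrichment. A gene named for its OL enrichment alone, Pappa, was chosen after its values were seen. Some genes that the rule names are not reported here. The members and lists were chosen with earlier results of these data known. Exon lengths and positions are from GENCODE M21 on GRCm38, and promoter sequences from RefSeq on GRCm38.p6.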

Additional observations from a re-analysis of the deposited data

Results flagged for a closer look

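Effects that differed between kinds of RNA or between times, each tested directly with edgeR's quasi-likelihood F test, were these. The OL change of Igfbp7 at dpi 42 exceeded its total RNA change by 2.65 log2 units (adjusted p = 0.014). The Igfbp7 difference did not pass in several fits given above, such as without dpi 42 OL library 1 (2.05, 0.064). Between dpi 2 and dpi 10 the change against naive in OL differed for Igf1 (3.44, adjusted p = 4.3e-07), Igf2 (4.50 as fitted, from 1 count at dpi 2, 0.00456, or 4.44 and 0.23 with only these groups compared), Igf1r (-0.90, 0.000113), Igfbp2 (-3.33, 0.00576, or -1.89 and 0.0735 without dpi 2 OL library 3), Igfbp3 (-1.90, 0.000844) and Igfbp7 (2.46, 0.000459). In total RNA it differed for Igf1 (2.82, 4.84e-06), Igf2 (2.97, 0.00139) and Igfbp3 (-2.08, 0.000974). For Igf1r the sign itself differed in OL: all 3 dpi 2 libraries lay above naive and all 3 dpi 10 libraries below it.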

How the results depend on the processing

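The changes of Igf1, Igfbp3, Igfbp6 and Igfbp7 against naive, in OL and total RNA at all 3 times, kept their direction and their call in the 36 fits that left out a library or a pool and in the 9 other settings, except Igf1 in OL at dpi 2 with only the groups compared (3.18, adjusted p = 0.102). Counts of members called moved by over 1.5 times in these cases, listed here without the share of all genes called in each fit. The DESeq2 Wald test called 1 member in differential OL enrichment at dpi 10 and 2 at dpi 42. With only the groups compared, 1 and 0 were called there, 7 in total RNA from dpi 2 to dpi 10, and 2 from dpi 10 to dpi 42. Without the dpi 42 libraries with conflicting labels, differential OL enrichment had 1 at dpi 2 and 0 at dpi 42. Leaving out a library or pool gave 5 to 10 members in naive OL enrichment, 6 to 10 in OL change at dpi 42, 0 to 1, 0 to 1 and 0 to 4 in differential OL enrichment at dpi 2, 10 and 42, and 0 to 1 in OL from dpi 10 to dpi 42. The values were highest without naive OL library 3 for naive OL enrichment, OL change at dpi 42 and differential OL enrichment at dpi 42.

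With library sizes alone, the median OL enrichment of all genes was -0.80 to -0.69, against -0.27 to -0.18 with TMM, and Igf2r turned to -0.45 at dpi 10 and -0.49 at dpi 42. Igfbp2 in naive OL enrichment ran from -1.98 to 1.00 and Igfbp5 in differential OL enrichment at dpi 42 from -0.81 to 1.92 over the fits with a library or pool left out, turning without naive OL library 3. A replicate block by tissue pool changed the calls of Igfbp5 in naive OL enrichment (-1.58, adjusted p = 0.0496) and Igfbp4 in OL enrichment at dpi 2 (-1.44, 0.0482). Between times, where pools share only a number, the block changed that of Igfbp2 in total RNA at dpi 10 (2.02, 0.0384), and no other call changed. Igf2 in OL, with at most 16 counts per library, is limited by depth. Causes of these shifts were not tested.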
